A study of Mus musculus with 48 samples.

Results

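The 10 genes described here are Cyp7a1, Cyp8b1, Cyp27a1, Cyp7b1, Nr0b2, Nr1h4, Slc10a1, Abcb11, Abcb4 and Baat. In the liver they act in bile acid synthesis, in transport from blood or into bile, or in the control of these. They were chosen by name, with earlier results of these data known. By matching Ensembl identifiers to mouse symbols, all 10 were found among the 25913 genes of a liver count table. That table held 6 libraries, each from the liver of a female C3B6F1 mouse, a hybrid of 2 inbred strains, labelled 26 months of age (the protocol gives 27 months at death). AL mice were fully fed, and DR (dietary restriction) mice received 60% of the amount that AL mice ate. The 3 ALDR mice had been fully fed until 24 months of age and were then moved to restriction, brought in stepwise. The 3 DRAL mice had been restricted from 12 weeks of age and were moved at 24 months to full feeding. Restricted mice were given 1 meal a day, and mice of every group were killed at most 3 hours ahead of that meal, so the ALDR mice were near the end of the interval between meals while the DRAL mice were fully fed. The effects of diet, of meal timing and of earlier life on either diet cannot be told apart in these 2 groups, and liver of mice kept on AL or DR was not analysed here. White (WAT) and brown (BAT) adipose tissue of the same design supplied 22 and 20 of the 48 libraries and is used at the end.

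Bile acids are made from cholesterol in hepatocytes. Cyp7a1 starts the main route and is its rate-limiting enzyme, Cyp27a1 and Cyp7b1 serve the alternative route that begins on the side chain, Cyp8b1 adds the hydroxyl group that makes cholic acid, and Baat joins the finished acids to taurine or glycine. Slc10a1 (the carrier NTCP) takes bile acids up from blood, Abcb11 (the bile salt export pump) moves them into the bile canaliculus, and Abcb4 moves phosphatidylcholine there, which protects the duct cells from bile salts. Nr1h4 encodes FXR, the nuclear receptor that senses bile acids, and Nr0b2 encodes SHP, a repressor that FXR induces and that lowers Cyp7a1 and Cyp8b1 transcription.

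Of the 10 genes, Abcb11, Abcb4 and Nr1h4 passed the test between the groups in liver, and their promoters are shown for that reason. The windows run from 250 bases before to 50 bases after the annotated start, 5' to 3' on the gene's strand, from RefSeq on GRCm38.p6. Capitals mark the nuclear receptor half-site AGGTCA, which reads TGACCT where it lies on the opposite strand. The window of Abcb11 is chr2:69342567-69342866 on the minus strand, that of Nr1h4 is chr10:89506609-89506908 on the minus strand, inside the span that GENCODE gives the gene, and that of Abcb4 is chr5:8893471-8893770 on the plus strand.
Abcb11: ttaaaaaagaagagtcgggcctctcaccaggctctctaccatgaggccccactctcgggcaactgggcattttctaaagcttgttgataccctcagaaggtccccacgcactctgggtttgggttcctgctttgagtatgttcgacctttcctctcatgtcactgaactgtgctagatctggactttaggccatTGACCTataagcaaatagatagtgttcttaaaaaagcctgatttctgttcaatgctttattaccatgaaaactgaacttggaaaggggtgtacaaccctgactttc
Nr1h4: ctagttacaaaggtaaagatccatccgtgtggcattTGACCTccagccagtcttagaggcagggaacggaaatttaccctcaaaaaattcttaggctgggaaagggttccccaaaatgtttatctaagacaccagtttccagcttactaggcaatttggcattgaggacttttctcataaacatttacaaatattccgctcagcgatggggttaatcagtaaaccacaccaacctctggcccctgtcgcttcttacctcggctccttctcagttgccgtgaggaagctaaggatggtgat
Abcb4: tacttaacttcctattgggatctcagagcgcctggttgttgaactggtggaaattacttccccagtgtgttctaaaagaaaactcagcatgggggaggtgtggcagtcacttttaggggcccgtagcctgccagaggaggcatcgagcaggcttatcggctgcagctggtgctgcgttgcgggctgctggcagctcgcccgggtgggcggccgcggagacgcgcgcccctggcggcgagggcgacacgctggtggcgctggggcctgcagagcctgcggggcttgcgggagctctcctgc
The half-site stood at bases 195 to 200 of the Abcb11 window, 56 bases before the start, and at bases 37 to 42 of the Nr1h4 window, 214 bases before it. It was not among the letters of the Abcb4 window. RefSeq promoters were found for 7 of the 10 genes, 8 windows in all because Slc10a1 has 2, and the half-site was in 3 of the 8, the other being a Slc10a1 window. Of 32851 promoters of the same length, 16.3% held it. Neither the inverted repeat AGGTCANTGACCT, the form that FXR is best known to bind, nor the direct repeat AGGTCANAGGTCA was in any of the 8, against 0.00913% and 0.0396% of all promoters. The E-box CACGTG, the letters that the clock proteins CLOCK and BMAL1 are known to bind, was in the Nr0b2 window, 195 bases before the start, and in 7.15% of all promoters. All motifs were searched on both strands, and each repeat contains the half-site. These matches describe letters in short windows and say nothing of binding. No RefSeq promoter was matched to Cyp7a1, Cyp7b1 or Baat.

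Library totals in liver were 14678489 to 22893099 counts, so that 3 counts, taken as the lowest level that can be read, were 0.131 to 0.204 CPM, counts scaled to a fixed library total. Levels are given as CPM scaled with the TMM method, and differences as the log2 fold change of ALDR against DRAL from edgeR's quasi-likelihood test with Benjamini-Hochberg (BH) adjustment over the 12761 genes tested, called at 0.05. The sum of the Y-linked genes Ddx3y, Eif2s3y, Kdm5d and Uty was 11 to 20 counts in 4 of the 6 libraries and 0 in ALDR replicate 2 and DRAL replicate 3, although the mice were female, and Xist, expressed from the inactive X chromosome, was at 775 to 1070 CPM in ALDR and 534 to 636 CPM in DRAL, without overlap, and was called higher in ALDR. The same 4 libraries held 67 to 104 counts of the muscle gene Ckm, and the same 2 held 0. Deviations from the group means over all tested genes correlated at 0.64 between those 2 libraries, the highest of the 9 pairs of 1 ALDR and 1 DRAL library. The log2 fold change of each of the 10 genes is given below also among the other 4 libraries, with its test, and between these 2, where there is no test. Among genes outside the 10 that are named below, Cyp46a1, Abcc3 and Arntl passed the test over all 6 libraries but not within those 4 (edgeR BH-adjusted p = 0.0899, 0.125 and 0.0654). Hepatocyte markers summed to 73780 to 85953 CPM in ALDR and 59465 to 65193 CPM in DRAL, mostly Alb, without overlap, and 2 of the 9 were called higher. Bile duct cell markers summed to 17.2 to 32.3 CPM in ALDR and 32.7 to 43.1 CPM in DRAL, with Krt19 at 0.776 and 1.15 CPM on average, and 1 of the 6 tested was called lower. Periportal hepatocyte markers summed to 6575 to 7988 CPM in ALDR and 3878.5 to 5072 CPM in DRAL, without overlap, but that gap came from Pck1, an enzyme of glucose synthesis, at 4321 ± 547 and 1106 ± 701 CPM (SD, n = 3). Of the 7 genes Pck1 and Hsd17b13 were called higher and Hal and Cyp2f2 lower. Pericentral hepatocyte markers (3674 to 5057 CPM in ALDR, 3346 to 3961 CPM in DRAL) and macrophage markers (560 to 848 and 593 to 780 CPM) overlapped between the groups, with 2 of 7 and 1 of 8 tested genes called higher. Of all genes tested, 10.9% were called higher and 12.9% lower. The part of these cell types in the results was not tested. In bulk tissue, fewer cells of a type and less RNA per cell cannot be told apart.

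In ALDR livers Abcb11 was lower and Abcb4 and Nr1h4 were higher than in DRAL livers, and the 4 enzymes of the synthesis routes, the conjugating enzyme, the uptake carrier and Nr0b2 did not pass the test. Thus 3 of the 10 genes were called, 2 higher and 1 lower, against 23.8% of all genes tested (10.9% higher and 12.9% lower). For 4 of the 10 (Nr1h4, Abcb11, Abcb4 and Baat) the 3 ALDR libraries lay wholly on one side of the 3 DRAL libraries, which held for 41.4% of all genes tested. Both shares are near those of the whole table. The median log2 fold change of the 10 was 0.06, beside -0.005 over all genes tested. The plot of levels by library shows where the groups part.

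**Figure D1:**
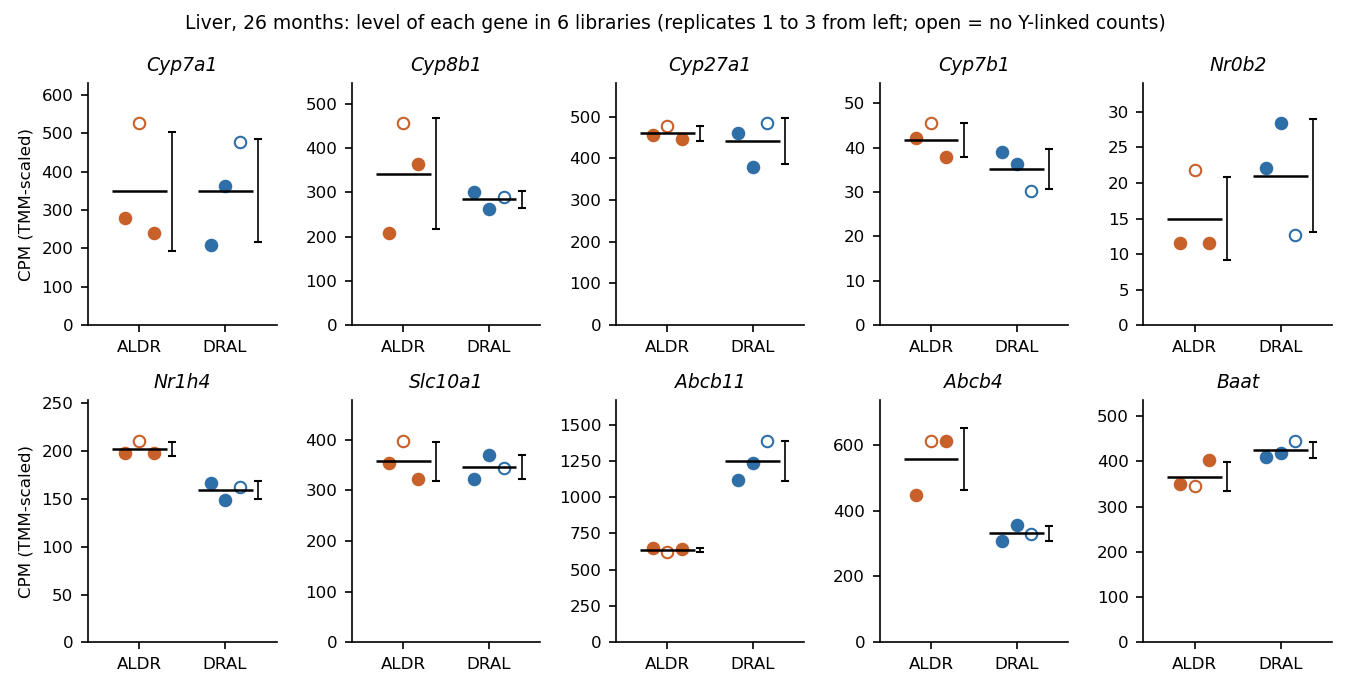
CPM of each of the 10 genes (vertical axis, from 0) in the 3 ALDR and 3 DRAL liver libraries, replicates 1 to 3 from left to right. Bars are group means, error bars 1 SD (n = 3) and open circles the 2 libraries with no Y-linked counts. Abcb11, Abcb4, Nr1h4 and Baat have groups that do not overlap, and Cyp7a1, Cyp8b1 and Nr0b2 have wide spreads inside at least 1 group.

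Cyp7a1 (ENSMUSG00000028240, chr4:6265612-6275633 in GRCm38, minus strand) was at 280.3, 526.1 and 240.1 CPM in ALDR replicates 1 to 3 and at 210.0, 364 and 477 CPM in DRAL replicates 1 to 3. The groups overlapped almost completely, and the highest library of each group was 2.19 times the lowest in ALDR and 2.27 times in DRAL. Cyp7a1 differed by a log2 fold change of -0.01 (95% interval -0.73 to 0.71, SE 0.32, edgeR BH-adjusted p = 0.993). The 2 highest libraries, ALDR replicate 2 and DRAL replicate 3, were the 2 without Y-linked and Ckm counts. Among the other 4 libraries the log2 fold change was -0.13 (edgeR BH-adjusted p = 0.761), and between the 2 it was 0.14, with no test.

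Cyp8b1 (ENSMUSG00000050445, chr9:121914356-121916305, minus strand), whose activity sets the share of cholic acid, was at 207, 456 and 363 CPM in ALDR and at 301, 263 and 290.0 CPM in DRAL. Its DRAL libraries lay close together, inside the range of the ALDR libraries, of which replicate 1 was lower and replicates 2 and 3 higher than all of DRAL. Its fitted log2 fold change was 0.27 (SE 0.23, 95% interval -0.25 to 0.78, edgeR BH-adjusted p = 0.445). Without ALDR replicate 1 it was 0.53 (edgeR BH-adjusted p = 0.0358), and without ALDR replicate 2 it was 0.02 (edgeR BH-adjusted p = 0.964), so its place in the test rests on single libraries. Among the 4 libraries with Y-linked counts it was 0.03 (edgeR BH-adjusted p = 0.945), and between the 2 without them 0.65.

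Cyp27a1 (ENSMUSG00000026170, chr1:74713574-74737892, plus strand), the sterol hydroxylase of mitochondria, was at 456, 478.5 and 445 CPM in ALDR and 461, 378.5 and 484 CPM in DRAL. Only DRAL replicate 2 stood below the rest, and the groups overlapped. Its log2 fold change was 0.06 (SE 0.12, edgeR BH-adjusted p = 0.761), with a 95% interval of -0.20 to 0.32. It was 0.12 among the 4 libraries with Y-linked counts (edgeR BH-adjusted p = 0.624) and -0.016 between the 2 without. Cyp7b1 (ENSMUSG00000039519, chr3:18071950-18243338, minus strand), which hydroxylates the oxysterols that Cyp27a1 makes, was at 42.2, 45.5 and 37.9 CPM in ALDR and 39.0, 36.3 and 30.3 CPM in DRAL. The lowest ALDR library lay below the highest DRAL library, and the log2 fold change of 0.25 (SE 0.13, 95% interval -0.03 to 0.53) did not pass (edgeR BH-adjusted p = 0.18). It was 0.10 among those 4 libraries (edgeR BH-adjusted p = 0.635) and 0.585 between those 2. The intervals of these 2 genes are narrow beside that of Cyp7a1.

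Baat (ENSMUSG00000039653, chr4:49489422-49506557, minus strand) was at 349, 346.5 and 403 CPM in ALDR and 410.3, 419 and 446 CPM in DRAL. All 3 ALDR libraries were below all 3 DRAL libraries, by little in the case of ALDR replicate 3. The log2 fold change was -0.21 (SE 0.11, 95% interval -0.45 to 0.02) and did not pass (edgeR BH-adjusted p = 0.178). Among the 4 libraries it was -0.13 (edgeR BH-adjusted p = 0.572), and between the 2 it was -0.36.

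Among the regulators, Nr1h4 (ENSMUSG00000047638, chr10:89454234-89533585, minus strand) was at 198.5, 211 and 198 CPM in ALDR and 167, 149 and 163 CPM in DRAL. Each ALDR library was above each DRAL library, and the spread inside either group was small. Nr1h4 was 1.27-fold higher in ALDR (0.35 on the log2 scale, SE 0.10, edgeR BH-adjusted p = 0.0303). That call was lost when any 1 of the 6 libraries was left out (edgeR BH-adjusted p from 0.051 to 0.111), while the log2 fold change stayed between 0.30 and 0.38. It was 0.34 among the 4 libraries with Y-linked counts (edgeR BH-adjusted p = 0.108) and 0.38 between the 2 without.

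Nr0b2 (ENSMUSG00000037583, chr4:133553376-133556536, plus strand) was at 11.6, 21.8 and 11.6 CPM in ALDR and 22.1, 28.4 and 12.7 CPM in DRAL. ALDR replicate 2 was the highest of its group and DRAL replicate 3 the lowest of its own, so the groups overlapped, and the log2 fold change of -0.49 (SE 0.31, 95% interval -1.17 to 0.19) did not pass (edgeR BH-adjusted p = 0.282). These are again the 2 libraries without Y-linked and Ckm counts. Among the other 4 libraries Nr0b2 was lower in ALDR, at -1.11 on the log2 scale (edgeR BH-adjusted p = 0.00819, 2 libraries a group), and between the 2 it was higher, by 0.78, with no test. That difference between the 2 sets of libraries was not tested, and the sets were told apart only after their counts were seen.

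Slc10a1 (ENSMUSG00000021135, chr12:80953183-80968705, minus strand), the uptake carrier of the blood-facing membrane, was at 353, 398 and 322 CPM in ALDR and 322, 369.6 and 345 CPM in DRAL. The DRAL libraries lay inside the range of the ALDR libraries, of which replicate 2 was above all of DRAL. Slc10a1 differed by 0.05 on the log2 scale (SE 0.12, 95% interval -0.21 to 0.31, edgeR BH-adjusted p = 0.798), by -0.022 among the 4 libraries (edgeR BH-adjusted p = 0.934) and by 0.21 between the 2.

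Abcb11 (ENSMUSG00000027048, chr2:69238282-69342616, minus strand) was at 649, 622 and 643.5 CPM in ALDR and 1121, 1238 and 1389.5 CPM in DRAL. All ALDR libraries lay close together and far below all DRAL libraries, with means of 638 ± 14.1 CPM and 1249 ± 135 CPM (SD, n = 3). The log2 fold change was -0.97 (SE 0.11, 95% interval -1.22 to -0.72, edgeR BH-adjusted p = 0.000467), 1.96-fold lower in ALDR. It stayed called under every alternative that gave a test, with log2 fold changes of -1.04 to -0.86. The value nearest to 0 was that among the 4 libraries with Y-linked counts (edgeR BH-adjusted p = 0.00819), and between the 2 without them it was -1.16. An annotated antisense gene, Gm13613, overlaps exons of Abcb11, and it had 1 count in 1 DRAL library and 0 in the other 5.

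Abcb4 (ENSMUSG00000042476, chr5:8893717-8959231, plus strand) was at 448, 610.0 and 612 CPM in ALDR and 308.5, 355 and 328 CPM in DRAL. Every ALDR library was above every DRAL library, with ALDR replicate 1 nearest to them, and the means were 557 ± 94.1 CPM and 330.5 ± 23.4 CPM (SD, n = 3). The log2 fold change was 0.75 (SE 0.14, 95% interval 0.45 to 1.06, edgeR BH-adjusted p = 0.00416), 1.69-fold higher in ALDR. This call too held in every alternative with a test, with 0.69 among those 4 libraries (edgeR BH-adjusted p = 0.0415), and between the 2 the value was 0.895. Abcb1a, a close relative of Abcb4 that exports drugs, was also called higher, from 14.1 ± 5.18 CPM in DRAL to 43.6 ± 5.65 CPM in ALDR (SD, n = 3, edgeR BH-adjusted p = 0.0015). How reads that match both were counted is not given in the sources used here.

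The export pump and the phospholipid transporter of the same canalicular membrane thus differed in opposite directions. The ratio of Abcb11 to Abcb4 CPM was 1.45, 1.02 and 1.05 in ALDR and 3.63, 3.49 and 4.24 in DRAL. No ratio of one group reached those of the other, and the log2 ratio was 0.21 ± 0.28 in ALDR and 1.92 ± 0.15 in DRAL (SD, n = 3). The ratio is a description with no test, because both genes already separated the groups in opposite directions. It is of reads, not of molecules, since the merged exons of the 2 genes are 5.15 and 9.38 kb long, and only its change between libraries is read here.

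**Figure D2:**
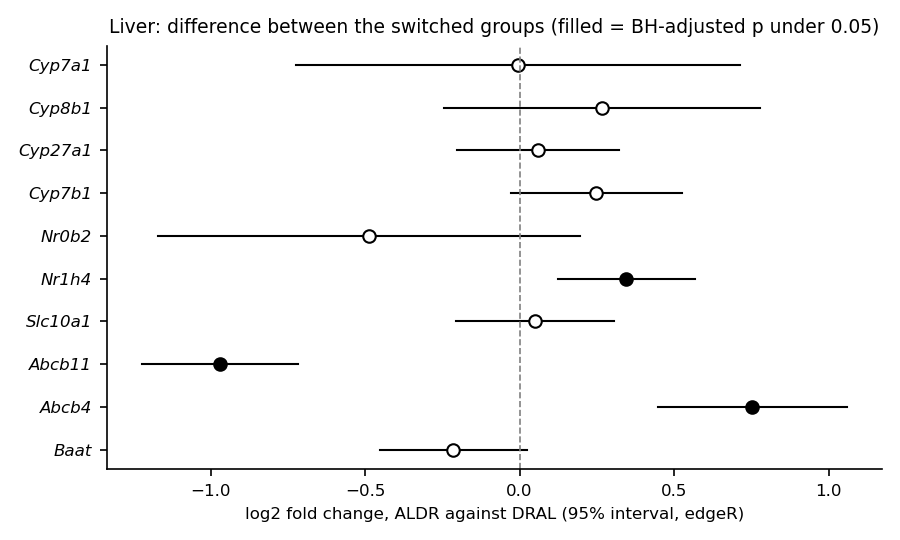
Log2 fold change of ALDR against DRAL in liver (horizontal axis) with its 95% interval for the 10 genes, filled where the edgeR BH-adjusted p was under 0.05. Abcb11 lies at -0.97, Abcb4 at 0.75 and Nr1h4 at 0.35, and the widest intervals belong to Cyp7a1 and Nr0b2.

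The genes differed in how much they varied inside a group. The SD of log2 CPM within groups was 0.60 for Cyp7a1, 0.56 for Nr0b2 and 0.42 for Cyp8b1, beside a median of 0.19 and an upper quartile of 0.30 over all genes tested. Transcription of Cyp7a1 is known to follow the time of day and of feeding, and the part of either in this spread was not tested. The other 7 genes had SDs from 0.07 for Nr1h4 to 0.20 for Abcb4. Over the 6 libraries, the genes whose log2 CPM followed Cyp7a1 most closely were Morn2, Gm21969 and Dhrs7 (Pearson r = 0.989, 0.988 and 0.986), and those closest to Cyp8b1 were Dram2, Uqcc3 and Eif5a (0.994, 0.992 and 0.984). These are the highest among 12761 genes over 6 points that share libraries and depth, and they are given as a description.

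Levels of different genes were compared per kilobase of merged exon, in each group apart because Abcb11 and Abcb4 differed between them. In ALDR the order by the median of the 3 libraries was Cyp27a1 (209.7 CPM per kb), Cyp8b1 (186), Baat (179.9), Slc10a1 (161), Abcb11 (125), Nr1h4 (86.2), Cyp7a1 (67.2), Abcb4 (65.0), Cyp7b1 (19.5) and Nr0b2 (10.3). In DRAL it was Abcb11 (241), Baat (216), Cyp27a1 (212), Slc10a1 (157), Cyp8b1 (149), Cyp7a1 (87.2), Nr1h4 (70.6), Abcb4 (34.95), Nr0b2 (19.5) and Cyp7b1 (16.8). Abcb11 thus stood in the middle of the order in ALDR and at its head in DRAL, with 121 to 126 and 218 to 270.0 CPM per kb. In ALDR the libraries of the first 4 genes overlapped from each gene to the next, all Abcb11 libraries lay below those of Slc10a1 and above those of Nr1h4, while single libraries of Cyp7a1 (replicate 2, 126) and Cyp8b1 (replicate 1, 106) reached or fell below them, and Nr1h4, Cyp7a1 and Abcb4 overlapped from each to the next. In DRAL the highest 3 overlapped from each to the next, above Slc10a1 and Cyp8b1, which overlapped, then Cyp7a1 and Nr1h4, which overlapped, then Abcb4. Cyp7b1 and Nr0b2 overlapped each other in both groups, below all libraries of Abcb4. The level of each gene other than Cyp7b1 and Nr0b2 rested on 2706 to 28842 counts a library, and those 2 on 172 to 968.

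Of 13 other synthesis and conjugation enzymes, 12 were tested, of which 4 were called higher and 3 lower, 58.3% beside the 23.8% of all genes tested, with a median log2 fold change of 0.19 beside -0.005. Cyp39a1, which hydroxylates oxysterols as Cyp7b1 does, was at 53.8, 40.3 and 48.4 CPM in ALDR and 14.9, 12.8 and 10.0 CPM in DRAL, without overlap. It was 3.76-fold higher (log2 fold change 1.91, SE 0.16, edgeR BH-adjusted p = 0.000103). Hsd3b7, the dehydrogenase that acts on the products of both Cyp7a1 and Cyp7b1, went the other way, from 1039.5, 889 and 1107.5 CPM in DRAL to 310.3, 445 and 368 CPM in ALDR (log2 fold change -1.43, SE 0.15, edgeR BH-adjusted p = 0.000269). Cyp2c70, which makes the muricholic acids of mice, fell by 1.15 on the log2 scale (SE 0.18, edgeR BH-adjusted p = 0.00232). Slc27a2, a ligase that activates bile acid intermediates, rose by 1.08 (SE 0.15, edgeR BH-adjusted p = 0.00106). Cyp46a1 (log2 fold change 0.73, edgeR BH-adjusted p = 0.0169) and Acox2 (-0.44, BH-adjusted p = 0.0266) passed as well, but the calls were lost in edgeR without ALDR replicate 1 or DRAL replicate 3, and that of Acox2 also without ALDR replicate 3 or DRAL replicate 2. Slc27a5, the bile acid ligase that acts just before Baat, was at 1541 ± 93 and 1408.5 ± 108 CPM (SD, n = 3) and did not pass (edgeR BH-adjusted p = 0.442). It was named after its value was seen.

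Of 12 other transporters of bile acids and bile lipids, 10 were tested, of which 4 were called higher and 2 lower, 60.0% beside 23.8% of all genes, with a median of 0.47. Slco1a4, an organic anion uptake carrier, rose by 1.04 (SE 0.15, edgeR BH-adjusted p = 0.00112), where the sodium-dependent carrier Slc10a1 differed by 0.05. Abcc2, which exports conjugates into bile beside Abcb11, was at 440, 418 and 509.7 CPM in ALDR and 271, 320.3 and 255 CPM in DRAL, without overlap (0.69, SE 0.13, edgeR BH-adjusted p = 0.00405). Abcc3, which exports conjugates back to blood, was called at 0.60 (edgeR BH-adjusted p = 0.0214), a call lost without ALDR replicate 1, ALDR replicate 2 or DRAL replicate 3. Atp8b1, the flippase that keeps the canalicular membrane in order, fell by 0.67 (SE 0.13, edgeR BH-adjusted p = 0.00448). Slco1a1 had 4, 7 and 0 counts in ALDR and 236, 30 and 53 counts in DRAL. It was called lower (edgeR BH-adjusted p = 0.00702). The fold change of Slco1a1 is not given as a number because the ALDR libraries were at or near the lowest level that can be read.

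Of 16 other receptors and regulators 15 were tested, with 5 called higher and none lower, 33.3% beside 23.8% of all genes, and a median of 0.16. Nr1i3 (the receptor CAR) was at 675, 823 and 736 CPM in ALDR and 236, 236 and 239.6 CPM in DRAL (log2 fold change 1.65, SE 0.11, edgeR BH-adjusted p = 4.64e-05). Ppara, the fatty acid receptor of fasting liver, rose by 0.98, Nr1i2 (the receptor PXR) by 0.65 and the coactivator Ppargc1a by 1.29 (edgeR BH-adjusted p = 0.000655, 0.00176 and 0.00705). Fgfr4 and its partner Klb, through which the gut hormone FGF15 lowers Cyp7a1, differed by 0.16 and -0.10 and did not pass (edgeR BH-adjusted p = 0.523 and 0.538). Nr5a2 and Hnf4a, activators of Cyp7a1 and Cyp8b1, differed by 0.26 and 0.19 (edgeR BH-adjusted p = 0.123 and 0.248).

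Cholesterol is the substrate of Cyp7a1 and Cyp27a1. Of 24 genes of its synthesis and uptake, all tested, 14 were called lower and none higher in ALDR, 58.3% where 12.9% of all genes were called lower, with a median of -0.71. Mvd, of the mevalonate pathway, was at 19.6, 16.4 and 11.5 CPM in ALDR and 83.0, 102 and 100.3 CPM in DRAL (-2.59, SE 0.18, edgeR BH-adjusted p = 4.97e-05). Insig1 fell by 1.89 and Sqle by 1.51 (edgeR BH-adjusted p = 0.000433 and 0.000476). Of 17 clock genes 15 were tested, with 8 called higher and 2 lower, 66.7% beside 23.8% of all genes, and a median of 0.99. Cry1 rose by 1.71, Tef by 1.36 and Hlf by 1.35 (edgeR BH-adjusted p = 0.000725, 0.000774 and 8e-04), while Nr1d1 fell by 1.44 and Arntl by 1.25 (BH-adjusted p = 0.000986 and 0.00826). Nr1d1 encodes REV-ERB alpha, and DBP, a factor of the same family as Tef and Hlf, is known to act on the Cyp7a1 promoter. Mean levels of Dbp itself were 33.0 ± 15.8 CPM under ALDR against 17.7 ± 9.05 CPM under DRAL (SD, n = 3), the libraries overlapped, and it did not pass (0.89, edgeR BH-adjusted p = 0.142). The plot of the lists shows the 10 genes beside these, and no test compares the lists. All the lists were chosen with earlier results of these data known, so their shares are given as a description.

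**Figure D3:**
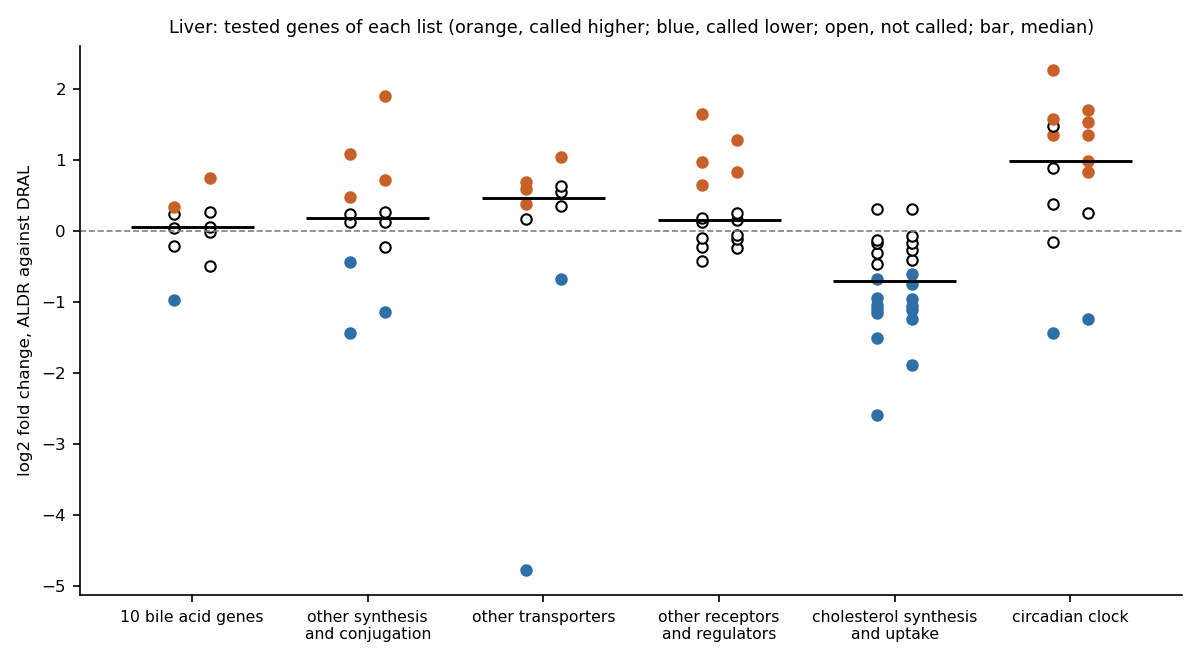
Log2 fold change of ALDR against DRAL in liver (vertical axis) for each tested gene of the 6 lists, orange where called higher, blue where called lower and open where not called, with the list's median as a bar. The 10 bile acid genes centre on 0.06 and the cholesterol genes on -0.71. The lowest point, among the transporters, is Slco1a1, whose ALDR counts were 0 to 7, so its height is not read as a fold change.

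The same contrast could be read in fat for some of the 10 genes. WAT and BAT libraries came from AL, DR, ALDR and DRAL mice of 26 months and from AL and ALDR mice of 5 months, the young ALDR mice after 2 months of restriction, with 3 to 5 libraries a group. The labels name epididymal fat although the mice were female, and the titles of the ALDR libraries of BAT read ADRL. In WAT, 9 of the 10 genes passed the filter on low counts, but 5 of them (Cyp7a1, Cyp8b1, Slc10a1, Abcb11 and Baat) had over 10 counts in only 3 or 4 of the 22 libraries, so no share of the 9 is read. Among Abcb4, Cyp27a1, Cyp7b1 and Nr1h4, Abcb4 was called, where 12.3% of 15828 genes tested were. In BAT, Abcb4 and Cyp27a1 passed and neither was called (edgeR BH-adjusted p under 0.05), against 2.02% of 13845 genes. The unadjusted p-values of the 2 genes in BAT were 0.219 and 0.371.

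Abcb4 was the gene called in WAT. It was at 11.9, 37.0, 18.7, 19.8 and 17.7 CPM in the 5 ALDR libraries and at 2.87, 5.05, 3.54, 3.02 and 5.74 CPM in the 5 DRAL libraries of 26 months. The groups did not overlap, which held for 8.97% of genes tested, and ALDR replicate 2 stood above the other 4. Abcb4 was 5.21-fold higher in ALDR (log2 fold change 2.38, SE 0.38, edgeR BH-adjusted p = 0.00156). ALDR replicate 2 also carried 2116 CPM of the liver gene Alb and 363 CPM of the muscle gene Ckm. Without the 7 WAT libraries with over 1000 CPM of Alb or over 100 CPM of Ckm, a choice made after these values were seen, the log2 fold change of Abcb4 was 2.05 (edgeR BH-adjusted p = 0.00524). Abcb4 was at 15.6, 17.7 and 29.0 CPM in AL and 4.23, 10.9 and 20.0 CPM in DR WAT of 26 months, and at 5.18 to 13.5 CPM in AL and 1.62 to 3.42 CPM in ALDR WAT of 5 months. The highest library of the old AL group and of the young AL group were 2 with high Alb, and the 2 higher DR libraries had 531 and 1944 CPM of Ckm. The part of that RNA in these levels was not tested.

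In BAT, Abcb4 was at 5.47, 6.43, 15.8, 5.12 and 4.43 CPM in ALDR and 3.71, 6.09 and 5.66 CPM in DRAL. ALDR replicate 3 stood far above the rest, the other ALDR libraries lay in about the range of DRAL, and replicate 3 carried 577 CPM of Ckm, the most of its group. The log2 fold change was 0.53 (SE 0.41, edgeR BH-adjusted p = 0.518), and 0.05 without that library (edgeR BH-adjusted p = 0.957). In every other BAT group, too, the library with the most Ckm had the most Abcb4. In old DR and young AL these were 404 and 582 CPM of Ckm with 11.5 and 11.8 CPM of Abcb4. In DRAL they were 56.4 CPM of Ckm with 6.09 CPM of Abcb4. The part of muscle RNA in these levels was not tested. Reads of WAT and liver came from RNA depleted of ribosomal RNA and those of BAT from polyadenylated RNA, and no level is compared across these tables.

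**Figure D4:**
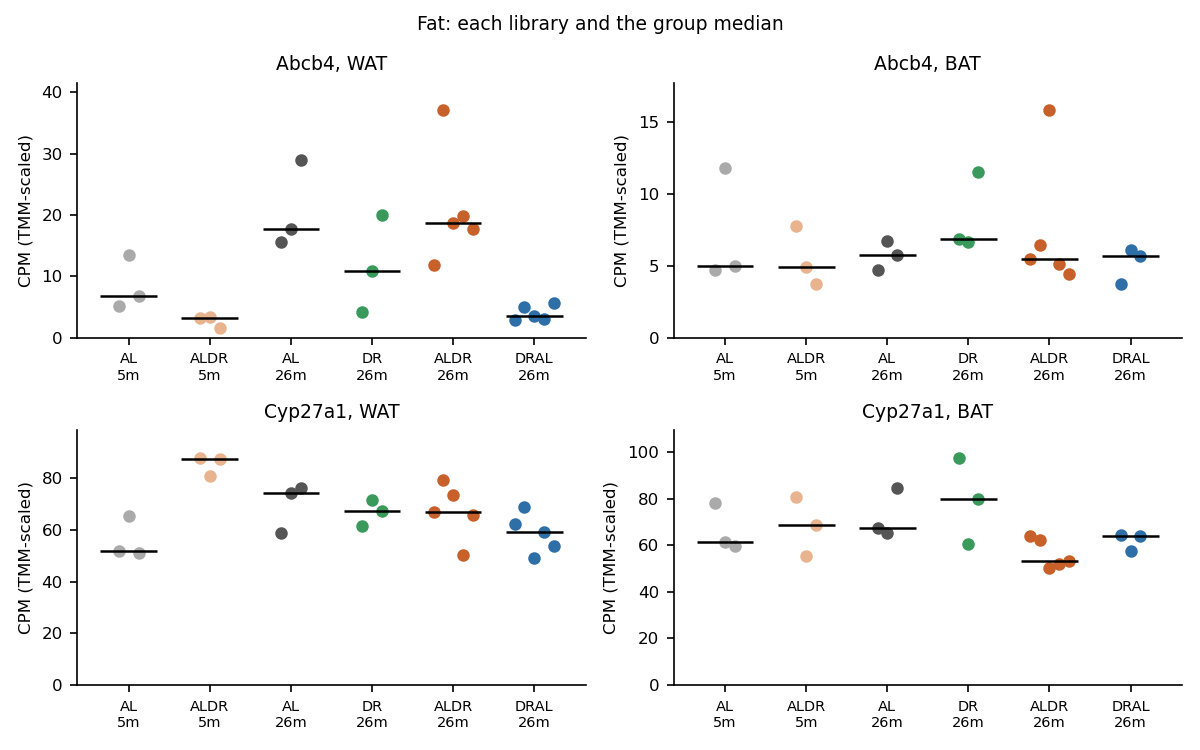
CPM of Abcb4 and Cyp27a1 (vertical axes, from 0) in each WAT and BAT library by diet group and age, with the group median as a bar. In WAT the 5 ALDR libraries of 26 months lie between 11.9 and 37.0 CPM of Abcb4, all above the 5 DRAL libraries, and Cyp27a1 differs little between these groups.

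Cyp27a1, which is widely expressed, was at 67.1, 79.2, 73.7, 50.45 and 66.0 CPM in ALDR and 62.2, 69.1, 49.1, 59.1 and 53.6 CPM in DRAL WAT of 26 months. The groups overlapped, and the log2 fold change was 0.20 (SE 0.12, 95% interval -0.04 to 0.44, edgeR BH-adjusted p = 0.264). In BAT it was -0.14 (SE 0.15, 95% interval -0.45 to 0.18, edgeR BH-adjusted p = 0.658). In liver the corresponding value was 0.06. Cyp7b1 in WAT was low, 1.64 to 3.74 CPM in ALDR and 0.928 to 3.95 CPM in DRAL, and differed by 0.05 (SE 0.37, edgeR BH-adjusted p = 0.943). Nr1h4 was at 0.788 to 5.05 CPM in ALDR and 0.638 to 2.15 CPM in DRAL, 0.72 on the log2 scale (edgeR BH-adjusted p = 0.40), and -0.15 without ALDR replicate 2.

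The liver-type genes Cyp7a1, Cyp8b1, Slc10a1, Abcb11 and Baat appeared in WAT in few libraries. Their summed level was 28.6 to 57.8 CPM in the 3 libraries with 1398 to 2116 CPM of Alb (ALDR replicate 2 and AL replicate 3 of 26 months and AL replicate 2 of 5 months) and at most 2.34 CPM in the other 19. In the ALDR group of 26 months, Cyp7a1 was at 8.12 CPM in replicate 2 and at 0 to 1 count in the other 4 libraries, and it had no count in the 5 DRAL libraries. Slc10a1 and Baat likewise had no count in DRAL, so no fold change or test is given for the 5 genes. Nr0b2 had no count in 18 of 22 WAT libraries and in all 20 BAT libraries, where 0 counts allow up to 0.155 to 0.494 CPM by counting error alone.

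**Figure D5:**
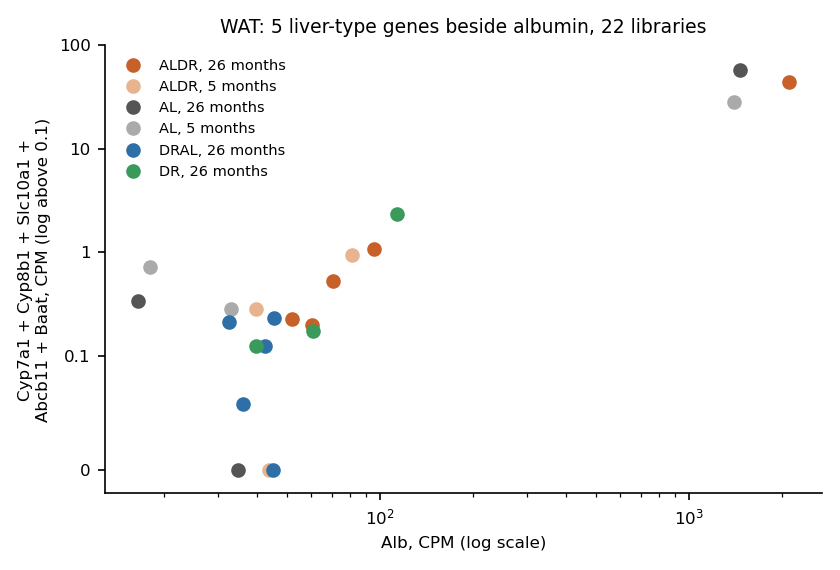
Summed CPM of Cyp7a1, Cyp8b1, Slc10a1, Abcb11 and Baat (vertical axis, linear below 0.1 and logarithmic above) against Alb CPM (horizontal axis, logarithmic) in the 22 WAT libraries, coloured by diet and age. The 3 libraries above 1000 CPM of Alb hold 28.6 to 57.8 CPM of the 5 genes, and the other 19 hold 0 to 2.34 CPM.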

How the data were processed

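Liver and WAT RNA (depleted of ribosomal RNA, stranded, paired-end) and BAT RNA (polyadenylated, stranded, single-end) were sequenced, per the labels. The deposited values are raw counts of reads per gene, made by the authors with Trim Galore 0.3.7 and TopHat2 2.0.14 on GRCm38, per the submitters' processing notes, which also name DESeq2. The counter, its strand setting and its annotation are not given in the sources used here.

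From the counts, edgeR 4.0.16 in R 4.3.3 (filterByExpr, TMM, glmQLFit and glmQLFTest) was fitted to all genes of a table, without covariates: the 6 liver libraries, and all 22 WAT or 20 BAT libraries with the 6 groups of each. P-values were BH-adjusted over all genes tested. DESeq2 1.42.0 and other settings were tried as alternatives, and the fit was tested on simulated data. Library totals were 12247161 to 22500246 in WAT and 6075585 to 19349912 in BAT. Intervals for counts of 0 take 3 counts and cover counting error only. Of 25913 liver gene identifiers 25012 had a symbol. Coordinates and merged exon lengths are from GENCODE M21.

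The 10 genes and all other lists were chosen with earlier results of these data known. Named are all 10 genes, up to 3 called genes a list and direction by the smallest adjusted p, and Fgfr4, Klb, Nr5a2, Hnf4a, Ppargc1a and Slco1a1 whatever their result; some genes under this rule are not reported here. The muscle markers, Gm13613, Abcb1a, the naming of Dbp and of the periportal genes, the order of levels in each group and the splits by Y-linked counts and by Alb or Ckm were chosen after the data were seen.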

Additional observations from a re-analysis of the deposited data

Results flagged for a closer look

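In groups of 4 to 10 libraries, 17 combinations of gene and group in fat were examined for a library set apart from the rest. A library was flagged where its gap to its nearest neighbour took up most of the group's range (Dixon's 95% critical value), and 7 were found. Of the 7, 6 were in WAT ALDR replicate 2 of 26 months, with Abcb11 at 13.99 CPM, Slc10a1 at 9.71, Cyp7a1 at 8.12, Cyp8b1 at 8.07, Nr1h4 at 5.05 and Baat at 4.77 CPM, all far above the other 4 libraries. That library carried 2116 CPM of Alb and 363 CPM of Ckm. All of these genes but Nr1h4 had over 10 counts in only 3 or 4 of the 22 WAT libraries, this one included. They passed the filter on low counts through such libraries, so their flags were largely fixed beforehand. The 6 flags come from the same library and are not separate draws, so their number is not set against chance. In BAT, Abcb4 at 15.8 CPM in ALDR replicate 3 stood apart, in the library with 577 CPM of Ckm.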

How the results depend on the processing

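In liver 3038 genes were called, 2050 to 2526 without each library in turn, 2028 with the replicate block and 1712 among the 4 libraries with Y-linked counts, and 2 to 3 of the 10 genes were called under each alternative (among those 4 libraries Abcb11, Abcb4 and Nr0b2). Calls over the alternatives numbered 4 to 7 among the other synthesis genes, 4 to 8 among the transporters and 5 among the regulators. They numbered 12 to 16 among the cholesterol genes and 8 to 13 among the clock genes. Among cell type markers they numbered 0 to 2 for hepatocytes and for bile duct cells and 0 to 1 for macrophages. Periportal hepatocyte markers had 4 calls and pericentral ones 1 to 4. Replicate numbers did not pair the libraries: same-numbered libraries correlated at 0.229, -0.377 and -0.421 in liver, so the replicate block is only an alternative. With it, Nr1h4 was not called (0.35, edgeR BH-adjusted p = 0.103), nor among the 4 libraries (0.34, 0.108). Abcb11 and Abcb4 kept their direction, and their call wherever there was a test. Among genes that were not called, signs turned. Cyp7a1 was at 0.011 with DESeq2 and 0.012 with RLE factors, 0.17 with Y-linked counts as a covariate, 0.14 between the 2 libraries without Y-linked counts, and -0.42 to 0.28 without each library (0.13, 0.20, 0.02 and 0.28 where it turned). Cyp27a1 was at -0.042 without DRAL replicate 2 and -0.016 between those 2 libraries, Slc10a1 at -0.023 without ALDR replicate 2 (up to 0.122 without others) and -0.022 among the 4, and Nr0b2 at 0.78 between the 2. In WAT, Cyp7b1 was at -0.13, -0.11 and -0.16 without ALDR replicate 4, DRAL replicate 3 or 5 (up to 0.292 without others), and Nr1h4 at -0.15 without ALDR replicate 2 (up to 1.09 without others) and -0.16 without the libraries with high Alb or Ckm. The cause was not tested. WAT calls numbered 1953, 1102 to 2848 without each library and 479 without those with high Alb or Ckm, which also leaves fewer libraries. BAT calls numbered 279, 577 with DESeq2, 124 with the replicate block, 6 in a fit of the 2 groups only and 35 to 737 without each library. Against that spread, Abcb4 kept its call in WAT in all alternatives run. With 3 libraries a group in liver, the intervals of Cyp7a1, Cyp8b1 and Nr0b2 are too wide to show that the groups are alike.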
